A study of Bos taurus with 21 samples.

Results

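The 10 genes described here are the leukocyte markers *PTPRC*, *CD3E*, *CD3D*, *CD4*, *CD8A*, *CD14*, *CD68*, *CD163*, *LYZ* and *CSF1R*, followed in foetal muscle of 2 cattle breeds. They were taken as every non-control probe whose RefSeq transcript belongs to a listed gene, which gave 23 of the 43653 probes and 10 of the 12538 genes that could be named. The breeds were the heavily muscled Blonde d'Aquitaine (BA) and, as its comparison, the Charolais (CH), both raised for beef in France. Each single-colour array held Cy3-labelled RNA of 1 foetus, with 3 BA and 2 CH foetuses at 110 days post-conception (dpc), 2 and 3 at 180 dpc, 3 and 3 at 210 dpc, and 2 and 3 at 260 dpc.

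The BA foetuses were 7 females and 3 males, and the CH foetuses 6 females and 5 males. All BA foetuses of 180 and 260 dpc and all CH foetuses of 110 dpc were female, while the other groups held both sexes. Sex and breed were thus partly confounded within these stages. All came from artificial insemination of cows with semen of their own breed, by 2 sires in each breed, so foetuses of a breed include half-siblings. The study did not genotype the BA foetuses for the myostatin mutation that is common in that breed. The sample labels name the muscle *Longissimus thoracis*, whereas the methods name *m. Semitendinosus*, and the arrays cannot tell these apart. Of 8 muscle genes listed as an identity check, 7 were measured and each was well above background on 21 of 21 arrays, from *ACTA1* (skeletal actin, 8.92 to 12.14 on the normalized log2 scale) to the myogenic regulator *MYOD1* (4.00 to 8.81).

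Leukocytes reach foetal muscle from haematopoietic organs through the blood. Macrophages settle early, before the lymphoid organs are mature, and remain as resident cells that clear debris and haemoglobin, whereas T cells leave the thymus later. PTPRC (CD45), a tyrosine phosphatase, is carried by nearly all leukocytes. CD3E and CD3D are signalling subunits of the T cell receptor complex, and CD4 and CD8A are co-receptors for class II and class I histocompatibility molecules. CSF1R is the receptor through which CSF1 and IL34 maintain macrophages, CD163 takes up haemoglobin bound to haptoglobin, CD14 passes lipopolysaccharide to TLR4, CD68 is a lysosomal membrane protein, and LYZ is the lysozyme that cleaves bacterial cell walls. The arrays measured whole muscle, so fewer cells of a type and less RNA per cell cannot be told apart.

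Values are log2 intensities scaled to the 75th percentile of each array. A probe is called well above background on an array where the scanner software marked it so. The number of probes marked so on an array ran from 29017 to 34502, with a median of 30545, and the lowest such probe had a normalized log2 value between -3.77 and -2.06. No probe value was saturated. There were 6 slides and 3 scan days. Slide 6, the only one of the third scan day, held a pair of BA foetuses in which several markers were high, the third of 110 dpc and the first of 180 dpc, beside the second BA and the first CH foetus of 210 dpc. Some results for single probes and the counts of marker genes are also given without these foetuses or the whole slide. The counts of probes that separate the breeds, the correlations and the companion lists are given only with them. Differences were tested with limma over all probes, with an adjusted p under 0.05 as the threshold. All groups share 1 estimate of the spread, since a group holds only 2 or 3 foetuses.

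Of the 23 marker probes, 10 were well above background on all 21 arrays, 7 on some arrays and 6 on none. Over all probes 60.1% were well above background on every array and 13.2% on none. The brightest probe of a gene was well above background on every array for 7 genes, the exceptions being *CD3E* (13 arrays), *CD8A* (20) and *CD163* (15). These figures concern probes, since brightness also depends on the probe and 1 probe's level cannot be set against another's. The readings of a gene's probes often did not move together. Of the 9 genes with more than 1 probe, *CSF1R* and *CD3E* had the highest Pearson correlations between probes over the 21 arrays, 0.87 and 0.72, followed by *CD14* at 0.49. For *PTPRC* the 3 further probes correlated with the brightest at 0.13, -0.03 and 0.05. For *CD4* the values were 0.05, 0.11 and 0.28, and *CD8A* (0.05), *CD68* (-0.15), *CD3D* (-0.45) and *LYZ* (-0.49) were at or below these. The further probes of *CD3D*, *CD8A* and *CD3E* and *PTPRC* probe A_73_P072541 were well above background on 0 arrays. The further *CD4* probes were so on 0, 1 and 0 arrays. A low correlation with such a probe does not show that the probes disagree. Both probes were well above background on all 21 arrays for *LYZ*, *CD14* and the *PTPRC* pair at 0.13. Each gene is given with all its probes.

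Between 110 and 260 dpc the macrophage receptors *CSF1R* and *CD163* fell, and *CD3E*, *CD4* and *CD68* rose, as read by the brightest probe of each. The other probes of *CD4* and *CD68* did not pass, and the specificity of the probes was not checked here. By brightest probe 5 of the 10 genes passed, 3 higher and 2 lower at 260 dpc, and 6 had an unadjusted p under 0.05. This is the share met over the whole array, where 43.9% of probes passed (21.2% higher, 22.7% lower). Over the 23 probes 9 passed, 5 higher and 4 lower, from 7 genes. The split of calls over the array depends on the scaling: 48.3% of the called probes were higher at 260 dpc on the 75th percentile scale, 68.2% after normexp background correction and 22.7% in the authors' unscaled values. On these 3 scales the median over all probes was 0.09, 0.22 and -0.37. The differences of these 5 genes kept their sign under every alternative that gave a value. All foetuses of 260 dpc stood above all of 110 dpc in 2 of the 23 probes, against 16.5% of all probes, and the reverse held in 4, against 17.0%.

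*CSF1R* declined by both of its probes. At 110 dpc its brightest probe, A_73_P045266, read 3.79, 3.18 and 5.14 in the BA foetuses and 3.85 and 3.78 in the CH foetuses. At 180 dpc it read 4.36 and 3.71 in BA and 3.71, 3.70 and 4.04 in CH. The levels of these stages overlapped, and the difference of 0.00 (SE 0.27) had an adjusted p of 1. At 210 dpc the probe read 3.49, 3.28 and 3.77 in BA and 3.15, 3.14 and 3.00 in CH. At 260 dpc it read 2.51 and 2.43 in BA and 2.25, 2.59 and 2.79 in CH. Every foetus of 110 dpc stood above every foetus of 260 dpc, as did every foetus of 180 and 210 dpc. The mean went from 3.95 ± 0.72 (SD, n = 5) at 110 dpc to 2.51 ± 0.20 (SD, n = 5) at 260 dpc, a fall of 2.68-fold (log2 difference -1.42, SE 0.27, limma adjusted p = 0.00049). It passed in 21 of 21 fits that left out an array and in 10 of 10 other alternatives. The last step, from 210 to 260 dpc, was -0.80 (SE 0.26, adjusted p = 0.035), a call lost in 8 of the 21 fits that left out an array, with an adjusted p of 0.057 to 0.11, the highest without BA foetus 2 at 260 dpc, and in 3 other alternatives, among them slide as a block (-0.69, adjusted p = 0.079).

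The second *CSF1R* probe, A_73_P290976, was dim and declined as well. It was well above background in 3 of 5 foetuses at 110 dpc, 5 of 5 at 180 dpc, 2 of 6 at 210 dpc and 0 of 5 at 260 dpc. All foetuses of 110 dpc lay above all of 260 dpc, with -3.00 to -1.40 against -4.35 to -3.49. The fitted limma difference passed (adjusted p = 0.00018). The 260 dpc values and some of those of 110 dpc are only bounds, so no minimum fold is given over both breeds. In CH, where 2 of 2 foetuses of 110 dpc were well above background, their mean was at least 2.29-fold that at 260 dpc. With normexp background correction the difference of this probe was -0.10 (adjusted p = 0.48).

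*CD163* was no longer well above background at the last stage. Its only probe read -1.95, -1.92 and 0.04 in BA and -1.96 and -1.67 in CH at 110 dpc, where 5 of 5 foetuses were well above background. At 180 dpc it read -1.36 and -1.04 in BA and -1.86, -1.63 and -1.58 in CH, again with 5 of 5. At 210 dpc it read -1.80, -1.69 and -1.87 in BA and -1.90, -1.72 and -2.01 in CH, with 5 of 6. These 3 stages overlapped and no step between them passed. At 260 dpc the values were -2.73 and -2.72 in BA and -3.76, -2.45 and -2.46 in CH, and none of the 5 foetuses was well above background. All 5 lay below every earlier foetus. In these foetuses the mean at 110 dpc was at least 1.98-fold that at 260 dpc, a bound raised by the BA foetus at 0.04. Set against the same upper bounds of 260 dpc, the mean reading at 210 dpc was 1.56-fold. The fitted limma differences passed against 110 dpc (adjusted p = 0.0056) and against 210 dpc (adjusted p = 0.034). The latter call was lost in 8 of 21 fits that left out an array, with an adjusted p of 0.053 to 0.097. With slide as a block the fitted 260 minus 110 dpc difference was -1.20 with an adjusted p of 0.14, and after normexp it was -0.19 with an adjusted p of 0.31. The 260 minus 210 dpc call was also lost with slide as a block (-0.76, adjusted p = 0.19) and after normexp (-0.08, adjusted p = 0.68). Quantile normalization gave -0.82 for that step (adjusted p = 0.066).

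*CD68* went the other way. Its brightest probe read 0.95, 0.65 and 1.51 in BA and 0.94 and 0.95 in CH at 110 dpc, and 1.64 and 1.30 in BA and 1.19, 1.09 and 1.37 in CH at 180 dpc. At 210 dpc it read 1.28, 1.50 and 1.49 in BA and 1.44, 1.50 and 1.61 in CH. At 260 dpc it read 1.62 and 2.01 in BA and 1.79, 1.94 and 1.77 in CH. All foetuses of 260 dpc stood above all of 110 dpc, and the spread at 210 dpc was narrow (1.47 ± 0.11, SD, n = 6). The rise was 1.78-fold (log2 difference 0.83, SE 0.14, adjusted p = 0.00018), and it passed in 21 of 21 fits that left out an array and with slide as a block. In the authors' unscaled values it was 0.44 (adjusted p = 0.16). The other *CD68* probe, A_73_106271, was well above background on 15 arrays and differed by -0.38 (SE 0.24, adjusted p = 0.21), so the gene's rise rests on 1 probe.

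The 2 *LYZ* probes moved apart. The brightest, A_73_P107931, stayed within 5.57 to 6.20 on all 21 arrays, with a difference of 0.30 (SE 0.12, adjusted p = 0.059). That difference passed under median scaling (0.40, adjusted p = 0.020), with a filter on dim probes (adjusted p = 0.029), and in 4 of 21 fits that left out an array (adjusted p 0.044 to 0.047). The other, A_73_105503, was well above background on every array and read 2.12, 2.64 and 2.15 in BA and 1.43 and 1.92 in CH at 110 dpc. At 180 dpc it read 2.02 and 1.67 in BA and 1.36, 1.69 and 1.52 in CH, and at 210 dpc 1.32, 1.20 and 1.04 in BA and 1.60, 1.24 and 1.06 in CH. At 260 dpc it read 0.29 and 0.46 in BA and 0.09, 0.54 and 0.37 in CH. Each foetus of 260 dpc lay below each of the earlier ones. The fall was 3.11-fold (log2 difference -1.64, SE 0.15, adjusted p = 3.4e-07), the lowest p among the marker probes, and the step from 210 dpc was -0.89 (adjusted p = 0.00035). Cattle carry a family of closely related lysozyme genes, so which of them each probe measures is uncertain.

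*CD14* did not pass by either probe. Its probes were level with each other in detection (21 arrays each) and read -0.74 to 0.37 and -0.69 to 1.35, with 260 minus 110 dpc differences of -0.06 (SE 0.21, adjusted p = 0.84) and -0.52 (SE 0.27, adjusted p = 0.14). In the authors' unscaled values the second probe passed (-0.91, adjusted p = 0.035). The sign of the first changed with the scaling. It was 0.04 after quantile normalization and 0.11 after normexp.

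**Figure D1:**
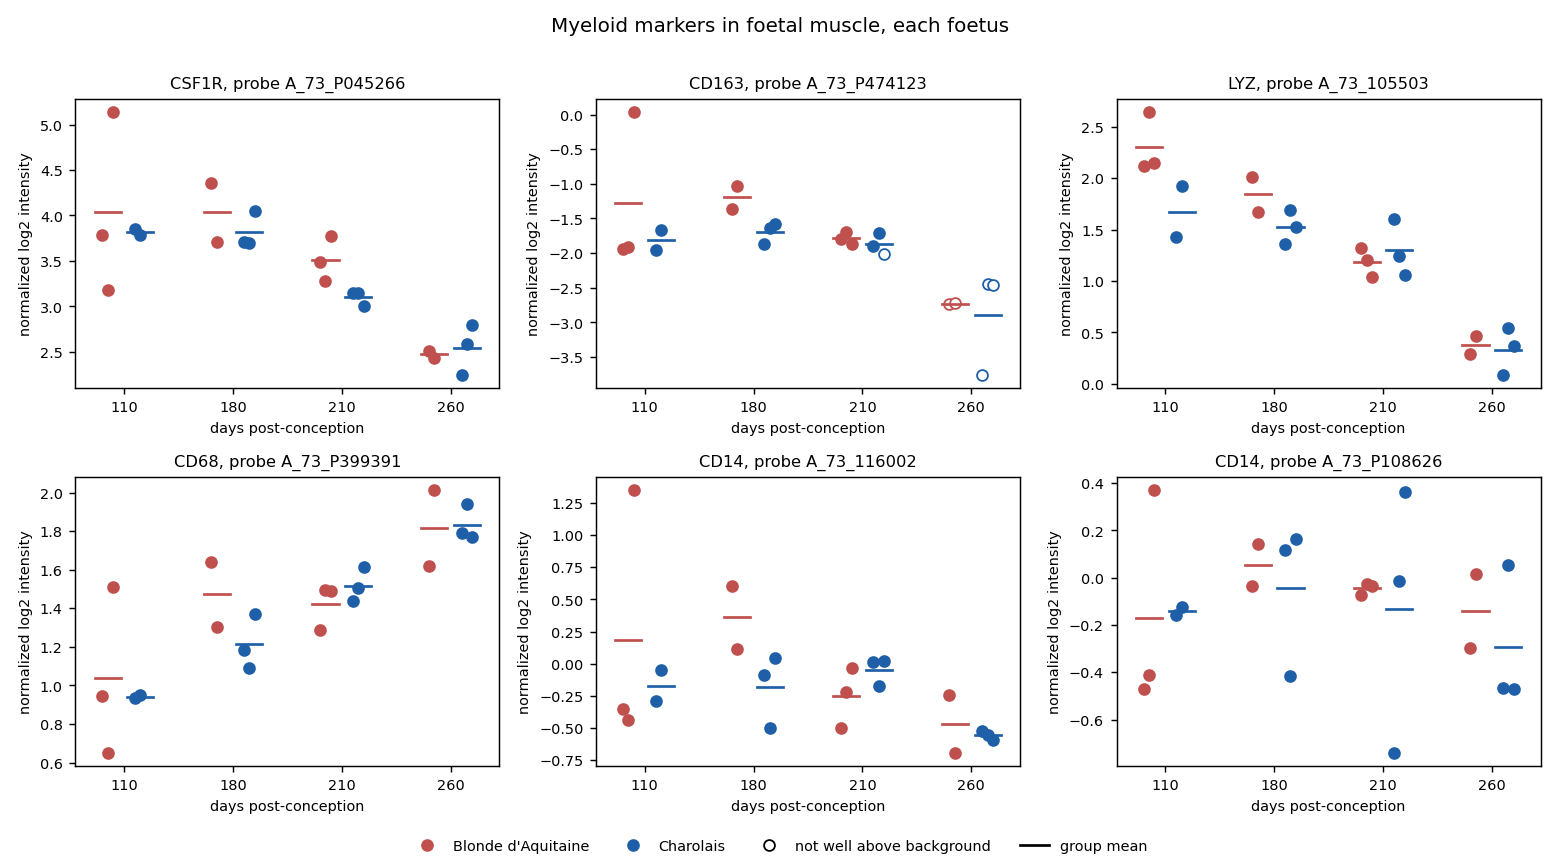
Normalized log2 intensity of 6 probes of 5 myeloid markers (vertical axes, each on its own scale) against days post-conception, 1 point per foetus, red for BA and blue for CH, open where the probe was not well above background, with a line at each group mean. *CSF1R*, *CD163* and *LYZ* probe A_73_105503 are lowest at 260 dpc and *CD68* is highest there, while 1 BA foetus at 110 dpc, at 5.14 for *CSF1R*, stands above its group in 5 of the 6 panels.

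Among the lymphoid markers *CD3E* was the one that came up from below detection. At 110 dpc its brightest probe, A_73_104727, read -4.65, -4.35 and -1.38 in BA and -3.32 and -4.65 in CH, and only the BA foetus at -1.38 was well above background. At 180 dpc it read 0.72 and -1.10 in BA, both well above background, and -2.33, -2.57 and -2.32 in CH, none of them so. Both BA values at 180 dpc lay above every CH value. The mean of these 2 BA foetuses was 4.63-fold the mean CH reading, but the difference did not pass (2.21, adjusted p = 0.79). Without the arrays of slide 6, which held 1 of these BA foetuses, it was 1.30 (adjusted p = 0.89). At 210 dpc it read -0.15, -1.98 and 0.26 in BA and -1.97, -1.54 and -1.71 in CH, with 5 of 6 foetuses well above background. At 260 dpc it read 0.38 and -0.63 in BA and -1.72, -0.22 and -0.78 in CH, with 5 of 5. The stages of 110 and 260 dpc overlapped through 1 BA foetus of 110 dpc. The fitted difference was 3.21 (SE 0.62, adjusted p = 0.00048), and in CH, where no foetus of 110 dpc was detected, the level at 260 dpc was at least 3.49-fold higher. It passed in 21 of 21 fits that left out an array, with differences of 2.88 to 3.73, and was 2.61 with an adjusted p of 0.088 with slide as a block. From 110 to 180 dpc the test also passed (fitted difference 2.42, SE 0.62, adjusted p = 0.016), but 4 of 5 foetuses at 110 dpc and all 3 CH foetuses at 180 dpc were not well above background, so the size of that step is not known. The call was lost without BA foetus 1 at 180 dpc (1.97, adjusted p = 0.096) or without CH foetus 2 at 110 dpc (2.09, adjusted p = 0.078).

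The second *CD3E* probe, A_73_P109026, stood at background on every array, so its values give no fold. It rose from 110 to 260 dpc all the same by the test (difference 1.30, SE 0.21, adjusted p = 7.7e-05), and from 110 to 180 dpc (1.45, SE 0.21, adjusted p = 0.00022). After normexp these differences were 0.57 (adjusted p = 0.00062) and 0.31 (adjusted p = 0.11).

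*CD8A* sat near the limit of detection. Its brightest probe read -0.79, -2.32 and -1.13 in BA and -1.89 and -2.02 in CH at 110 dpc, and 0.45 and -1.64 in BA and -1.61, -1.64 and -1.65 in CH at 180 dpc. At 210 dpc it read 0.05, -1.81 and 0.26 in BA and -1.14, -1.74 and -1.38 in CH. At 260 dpc it read 0.00 and -0.78 in BA and -1.68, -0.72 and -1.25 in CH. The CH foetuses were close together and the BA foetuses spread over more than 2 log2 units at 180 and 210 dpc. The stages overlapped, and the difference of 0.88 (SE 0.44) did not pass (adjusted p = 0.12). After normexp it was 0.47 (adjusted p = 0.038). The other probe was at background on every array.

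*CD4* and *CD3D* were bright by 1 probe each and at background by the rest. In mean level the bright probes stood at the 96.3 and 93.4 percentiles of all probes. Their specificity was not checked, so these readings may not be those of the named genes. The *CD4* probe A_73_104193 read 5.53 to 7.09 over the 21 arrays and rose by 0.78 from 110 to 260 dpc (SE 0.21, adjusted p = 0.0065) and by 0.64 from 210 to 260 dpc (SE 0.20, adjusted p = 0.029). In BA it moved from 5.53, 5.69 and 5.86 at 110 dpc to 6.53 and 7.09 at 260 dpc, and in CH the foetuses of 110 dpc read 6.04 and 6.85 and those of 260 dpc 6.81, 7.02 and 6.84, so that only the BA foetuses were apart. The first of these calls was lost without CH foetus 1 at 110 dpc (0.58, adjusted p = 0.053), after quantile normalization (0.46, adjusted p = 0.068), with slide as a block (0.58, adjusted p = 0.16), in the authors' unscaled values (0.39, adjusted p = 0.13) and in female foetuses alone (0.76, adjusted p = 0.079). The second was lost in 5 of 21 fits that left out an array, most clearly without BA foetus 2 at 260 dpc (0.50, adjusted p = 0.17), and in 5 other alternatives, with differences of 0.23 to 0.90 and adjusted p of 0.059 to 0.37. Of the 3 other *CD4* probes, 2 were well above background on no array and the third on 1 array, a CH foetus of 180 dpc at 1.05. The *CD3D* probe A_73_P049086 stayed between 4.91 and 5.84 with a difference of 0.08 (SE 0.17, adjusted p = 0.74), and the second *CD3D* probe was well above background on no array.

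The pan-leukocyte gene *PTPRC* had 2 probes on every array that took different courses. The brightest, A_73_P072546, was lower at 180 dpc than at 110 dpc and higher again at 260 dpc. It read 3.06, 3.34 and 3.30 in BA and 2.72 and 2.84 in CH at 110 dpc, 2.34 and 2.45 in BA and 2.60, 2.71 and 2.52 in CH at 180 dpc, 2.84, 2.75 and 2.90 in BA and 2.86, 2.41 and 2.89 in CH at 210 dpc, and 3.20 and 3.16 in BA and 3.48, 3.04 and 3.12 in CH at 260 dpc. All foetuses of 180 dpc lay below all of 110 and of 260 dpc. The step from 110 to 180 dpc was -0.50 (SE 0.12, adjusted p = 0.0081), that from 210 to 260 dpc 0.42 (SE 0.11, adjusted p = 0.0099), and the net difference 0.19 (SE 0.12, adjusted p = 0.19). The first step was -0.46 (adjusted p = 0.078) without the 4 arrays of slide 6 and -0.48 (adjusted p = 0.30) in the authors' unscaled values. The second was 0.01 (adjusted p = 0.97) in those values and 0.32 (adjusted p = 0.075) in female foetuses alone.

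The other, A_73_P476493, followed *CD3E* more closely, with a correlation of 0.86 over the 21 arrays, which share the same scaling and the same stage course. It read -0.84, -1.47 and 0.47 in BA and -1.43 and -0.90 in CH at 110 dpc, 0.86 and -0.62 in BA and -0.86, -0.91 and -0.43 in CH at 180 dpc, and 0.01, -0.36 and 0.33 in BA and -0.17, -0.46 and -0.18 in CH at 210 dpc. At 260 dpc it read 0.43 and 0.17 in BA and 0.01, 0.30 and -0.01 in CH. The stages of 110 and 260 dpc overlapped through the same BA foetus as for *CD3E*. The rise was 2.13-fold (log2 difference 1.09, SE 0.33, adjusted p = 0.012). Without CH foetus 1 at 110 dpc it was 0.96 (adjusted p = 0.059), and with slide as a block 0.59 (adjusted p = 0.30). Of the remaining *PTPRC* probes, A_73_P072536 was well above background on 9 arrays and differed by 0.57 (SE 0.54, adjusted p = 0.42), which became 1.03 (adjusted p = 0.0092) without the arrays of slide 6. A_73_P072541 was well above background on none and differed by -0.05 (SE 0.42, adjusted p = 0.94).

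**Figure D2:**
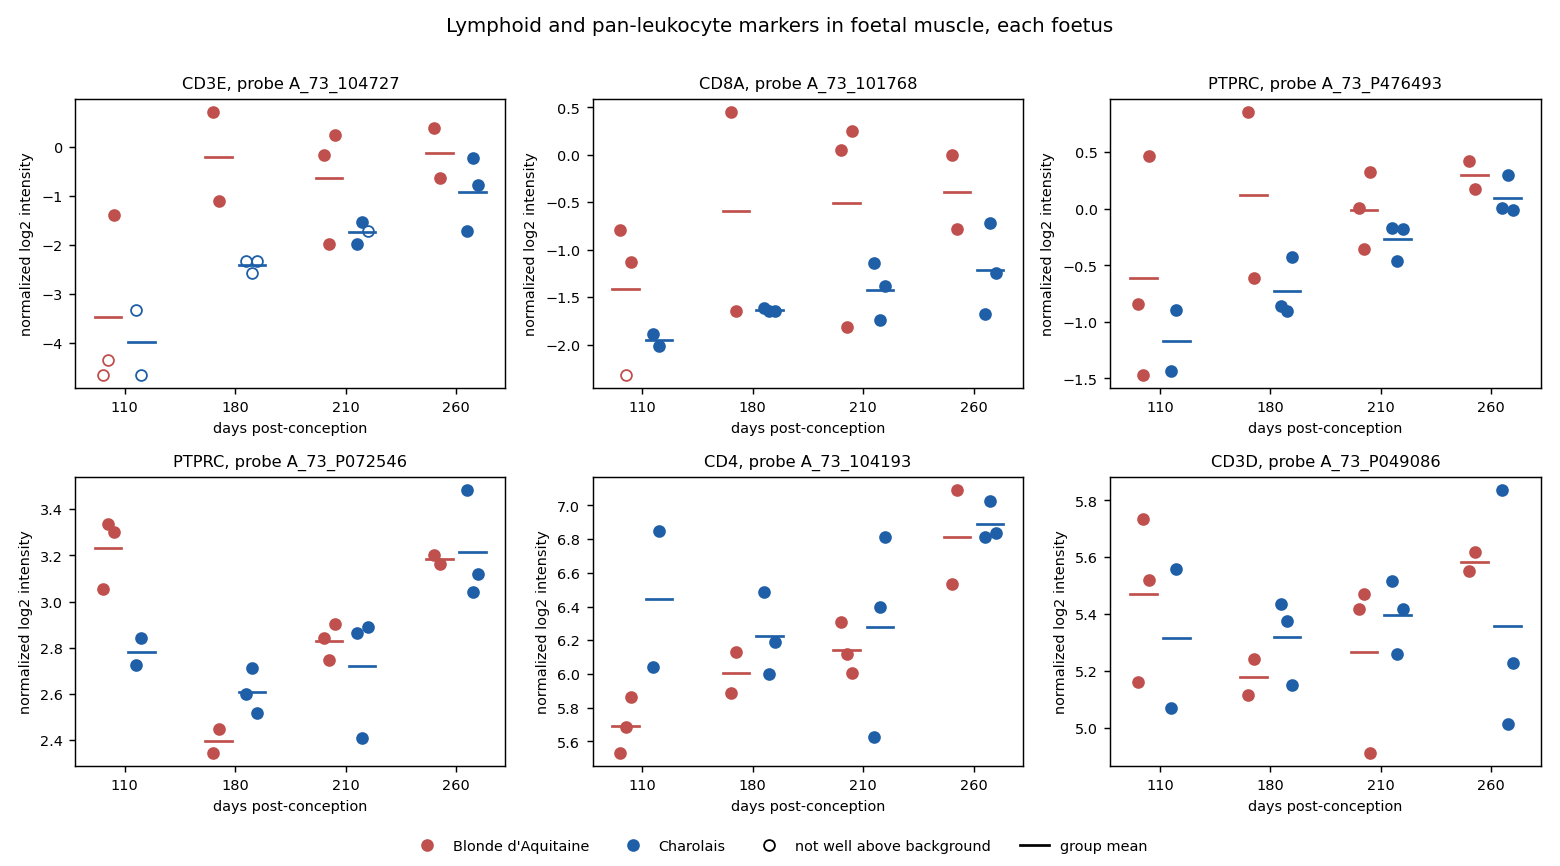
Normalized log2 intensity of 6 probes of 5 lymphoid and pan-leukocyte markers (vertical axes, each on its own scale) against days post-conception, 1 point per foetus, red for BA and blue for CH, open where the probe was not well above background, with a line at each group mean. *CD3E* is open in 4 of 5 foetuses at 110 dpc and filled in all at 260 dpc, and the *PTPRC* panels show different courses for the probes of 1 gene.

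The steps between stages were uneven. From 110 to 180 dpc 2 genes passed by brightest probe (*CD3E* higher, *PTPRC* lower) against 13.2% of all probes (6.53% higher, 6.63% lower). From 180 to 210 dpc none of the 10 passed, against 3.62% of all probes (1.95% higher, 1.67% lower), and 2 had an unadjusted p under 0.05. From 210 to 260 dpc 4 passed (*PTPRC* and *CD4* higher, *CD163* and *CSF1R* lower), against 24% of all probes (11.9% higher, 12% lower).

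Slide and stage were partly confounded. Only 1 slide held foetuses of both 110 and 260 dpc, 1 of each, so within-slide values of this difference rest on a single pair. Within the first scan day (2 foetuses of 260 dpc, 1 of 110 dpc) and the second (3 and 3) the 260 minus 110 dpc difference was 3.47 and 3.90 for *CD3E*, -1.44 and -0.98 for *CSF1R*, -1.57 and -0.61 for *CD163*, 0.95 and 0.93 for *CD68*, -1.65 and -1.67 for *LYZ* probe A_73_105503 and 0.99 and 1.49 for *PTPRC* probe A_73_P476493. For *CD4* it was 0.10 and 1.04. The signs were thus the same on both days, and the sizes of *CD4* were far apart. Breed was not balanced in these comparisons. The 110 dpc foetus of the first day was CH. On the second day most foetuses of 110 dpc were BA and most of 260 dpc were CH.

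**Figure D3:**
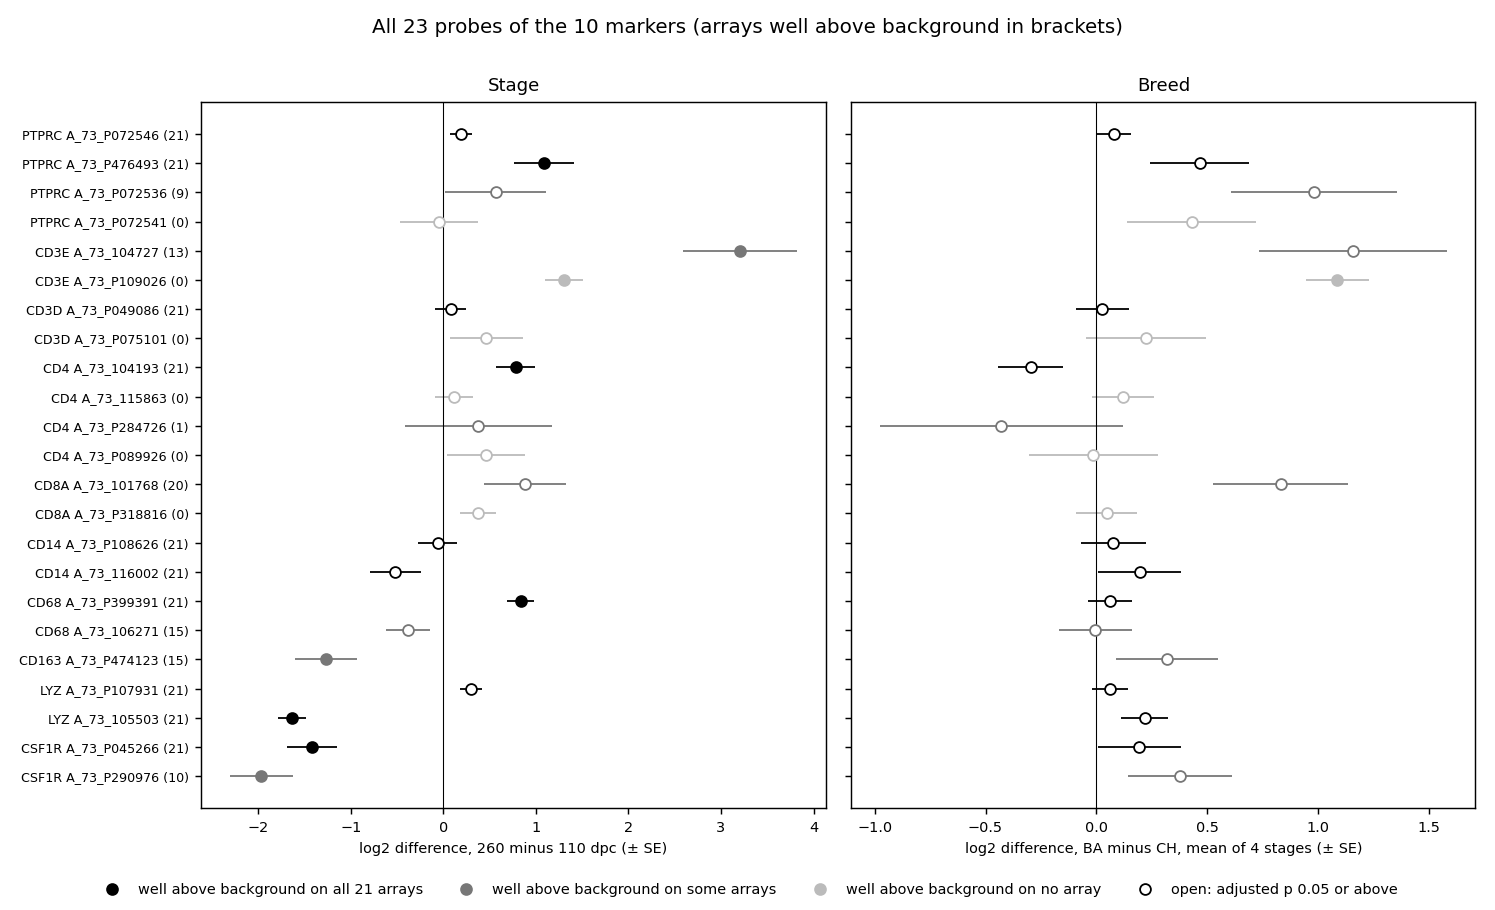
Fitted log2 differences with standard errors (horizontal axes) for all 23 probes of the 10 markers, for 260 minus 110 dpc on the left and BA minus CH averaged over the stages on the right, filled where the adjusted p is under 0.05 and shaded by the number of arrays well above background, which stands in brackets. On the left 9 probes are filled, 5 higher and 4 lower at 260 dpc, and on the right 1 is, a *CD3E* probe that was well above background on 0 arrays.

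Few breed differences in the markers passed the threshold. The groups hold few foetuses, so the lack of a call does not show that a difference was small. By brightest probe none of the 10 genes passed in the average over the stages, where 0.0733% of all probes passed (0.0435% higher and 0.0298% lower in BA) and 2 of the 10 had an unadjusted p under 0.05, *CD3E* and *CD8A*. None passed at 110 dpc (0.0206% of all probes), 180 dpc (0.0275%, with 0.0183% higher and 0.00916% lower in BA), 210 dpc (0.00229%) or 260 dpc (0.0137%), where 2, 1, 0 and 0 had an unadjusted p under 0.05. The change from 110 to 260 dpc did not differ between the breeds for any of the 10 by the interaction test (0.00687% of all probes passed, and 0 of the 10 had an unadjusted p under 0.05).

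By brightest probe *CD3E* and *CD8A* had the largest BA minus CH values, neither of which passed. *CD3E* differed by 1.16 on average (SE 0.43, adjusted p = 0.41) and *CD8A* by 0.83 (SE 0.31, adjusted p = 0.41). Without the 4 arrays of slide 6 these were 0.81 (adjusted p = 0.35) and 0.73 (adjusted p = 0.33). *PTPRC* probe A_73_P072536, well above background in 7 of 10 BA and 2 of 11 CH foetuses, differed by 0.98 (SE 0.37, adjusted p = 0.43). *PTPRC* (0.08, SE 0.08), *CSF1R* (0.19, SE 0.19), *CD14* (0.08, SE 0.15), *CD68* (0.06, SE 0.10), *LYZ* (0.06, SE 0.08), *CD163* (0.32, SE 0.23) and *CD3D* (0.03, SE 0.12) lay within 2 standard errors of 0, and their adjusted p-values were 0.74 or more. *CD4* differed by -0.30 (SE 0.15, adjusted p = 0.58).

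The single call was the dim *CD3E* probe A_73_P109026, at 1.09 in the average (SE 0.14, adjusted p = 0.0043) and 1.84 at 180 dpc (SE 0.29, adjusted p = 0.048). The 180 dpc call was lost with sex as a covariate (1.82, adjusted p = 0.093), a slide block (adjusted p = 0.13) or a replicate block (adjusted p = 0.074). It was also lost after median scaling (adjusted p = 0.084), quantile normalization (adjusted p = 0.27) and normexp (0.23, adjusted p = 0.99). At 180 dpc the probe read -2.67 and -2.50 in BA and -4.74, -4.30 and -4.25 in CH. At 210 dpc it read -3.10, -3.79 and -3.23 in BA and -4.78, -4.69 and -4.28 in CH, and at 260 dpc -2.64 and -3.34 in BA and -4.75, -4.39 and -3.85 in CH. Every BA foetus stood above every CH foetus at these 3 stages, while at 110 dpc they overlapped (-5.29 to -4.72 and -4.97 to -4.92). On 6 of 6 occasions where a BA and a CH foetus of 1 stage shared a slide, the BA value was higher, by 0.25 to 1.80. On the same pairs the brightest *CD3E* probe was higher in BA in 4 of 6, and *CD8A* in 4 of 6. The brightest *LYZ* probe, whose breed difference did not pass, was also higher in BA in 6 of 6, by 0.0077 to 0.47. A share over all probes is not given for this order. The pairs hold foetuses already in the fit, and the *CD3E* readings are at background, so the order adds no separate evidence for the call. With normexp background correction the average difference was 0.13 (adjusted p = 0.78), and in the female foetuses alone 1.09 (adjusted p = 0.10). The call at 180 dpc was lost in 18 of 21 fits that left out an array, with an adjusted p of up to 0.22 without CH foetus 1 at 180 dpc.

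Separation of the breeds without overlap was most frequent at 180 dpc, where 9 of the 23 probes had every BA foetus above every CH foetus, against 12.6% of all probes, and 1 had the reverse, against 9.9%. Of these 9 probes, 4 were well above background on none of the 21 arrays (*PTPRC* A_73_P072541, *CD3E* A_73_P109026, *CD3D* A_73_P075101 and *CD4* A_73_115863), so their order is one of background readings. The 9 came from 7 genes and were read in the same 5 foetuses, and at 180 dpc 2 BA foetuses were compared with 3 CH foetuses. At 110, 210 and 260 dpc the counts were 3, 2 and 3 probes, against 14.4%, 4.38% and 7.79% of all probes, and the reverse held in 1, 0 and 0, against 10.6%, 4.71% and 8.15%. By brightest probe 2 of 10 genes were so ordered at 180 dpc.

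A single foetus shaped several of these values. The third BA foetus at 110 dpc had the highest value of its group in 13 of the 23 probes (39.6% of all probes), and in 11 of the 16 that were well above background in that group. Its *CSF1R* was 3.15-fold, *CD163* 3.91-fold, *CD14* (probe A_73_116002) 3.35-fold and *PTPRC* (probe A_73_P476493) 3.09-fold the mean of the other BA foetuses at 110 dpc. Its median deviation over the marker probes was 0.42, against 0.01 over all probes. It was also the array with the most probes well above background, 34502, on slide 6. The first BA foetus at 180 dpc, the highest of its group in *CD3E*, *CD8A* and *PTPRC* probe A_73_P476493, lay on the same slide. The remaining foetuses of that slide were both of 210 dpc. The BA foetus was the lowest of its group in *CD3E* (-1.98) and *CD8A* (-1.81). The CH foetus, with 34224 probes well above background, was the highest of its group in *CSF1R* (3.15), *CD8A* (-1.14), *PTPRC* probe A_73_P476493 (-0.17) and *LYZ* probe A_73_105503 (1.60) and the lowest in *CD3E* (-1.97) and *CD68* (1.44). The part of the slide in these values was not tested beyond leaving it out. Without the third BA foetus at 110 dpc the 260 minus 110 dpc difference was -1.14 for *CSF1R* (adjusted p = 6.3e-05), -0.94 for *CD163* (adjusted p = 0.0026), 3.73 for *CD3E* (adjusted p = 1.9e-05) and 1.36 for *PTPRC* probe A_73_P476493 (adjusted p = 0.00055). *CSF1R* then also passed from 180 to 210 dpc (-0.62, adjusted p = 0.037). Without all 4 arrays of slide 6, a setting chosen after the data were seen, 7 of the 10 genes passed between 110 and 260 dpc, *CD8A* (0.95, adjusted p = 0.022) and *LYZ* (0.33, adjusted p = 0.050) in addition to the 5. The number of all probes called also moved with the setting, from 12751 to 23552 over the alternatives, so the 7 are not read as an excess.

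Deviations of foetuses from their group means moved together for some markers and not for others. Over the 21 arrays these deviations correlated at 0.95 between *CD3E* and *PTPRC* probe A_73_P072536, at 0.86 between *CSF1R* and *CD14* probe A_73_116002, at 0.77 between *CSF1R* and *CD163*, and at 0.82 between *CSF1R* and *CD3E*. These pairs were picked from all pairs of marker probes. The probes of the first pair were well above background on only 13 and 9 arrays. The brightest *CD3E* probe correlated at 0.09 with the other *CD3E* probe, which was at background, and at -0.08 with the brightest *PTPRC* probe. The brightest probes of *CD3D*, *LYZ*, *PTPRC* and *CD4* did not follow *CSF1R*, with values of -0.35, -0.17, -0.14 and -0.0040, and *CD3D* correlated with *CD3E* at -0.41. The foetus described above contributes to all of these values, and the arrays share their scaling. Over the levels themselves, which include the stage course, *CSF1R* correlated at 0.88 with *CD163* and at -0.18 with *CD3E*.

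The wider leukocyte lists moved in the same directions as the markers in part. Counts are by brightest probe and are to be read against 21.2% of probes higher and 22.7% lower over the array. Of 25 measured macrophage genes 3 were higher and 9 lower at 260 dpc than at 110 dpc, with a median difference of -0.85 against 0.09 over all probes. *VSIG4*, a complement receptor of resident macrophages, fell by 2.00 (SE 0.25, adjusted p = 7.2e-06), and *HMOX1*, which degrades haem, fell by 1.70 (SE 0.29, adjusted p = 0.00019). *TLR4*, the partner of CD14, rose by 1.69 (SE 0.22, adjusted p = 1.2e-05), and *LY96*, which binds lipopolysaccharide with it, fell by 0.65 (SE 0.25, adjusted p = 0.046). The ligands of CSF1R did not pass: *CSF1* differed by 0.40 (SE 0.22, adjusted p = 0.15) and *IL34* by 0.46 (SE 0.21, adjusted p = 0.091). *HP*, the haptoglobin that CD163 binds in complex with haemoglobin, was well above background on 6 arrays and differed by 0.12 (adjusted p = 0.86).

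Of 16 T cell genes 4 were higher and 1 lower, with a median of 0.07. *CD3G*, the third CD3 chain, differed by limma (adjusted p = 0.0087), higher at 260 dpc, and was well above background on 11 arrays, and *CD247*, the zeta chain, fell by 0.41 (SE 0.10, adjusted p = 0.0040). *GATA3*, a T helper transcription factor also used by other cells, rose by 1.51 (SE 0.26, adjusted p = 0.00015). *CD8B*, the partner of CD8A, was well above background on no array. Of 15 pan-leukocyte genes 6 were higher and 2 lower (median 0.46), with *ARHGDIB* up by 1.37 (adjusted p = 3.1e-05), *CD48*, a surface receptor of lymphocytes, up by 2.46 (adjusted p = 0.0013), and *HCLS1*, a cortactin relative detected on 9 arrays, lower (adjusted p = 1.6e-06). Of 8 B cell genes 3 were higher and 1 lower, of 10 natural killer and cytotoxic genes 2 and 0, and of 11 granulocyte and mast cell genes 5 and 1.

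The list of ligands and partners, with the class II molecules that CD4 recognises, had 8 higher and 2 lower of 16. *CD74*, the class II invariant chain, rose by 1.92 (SE 0.26, adjusted p = 1.7e-05), and *CSF3*, a granulocyte growth factor, was higher (adjusted p = 3.1e-10) while being well above background on 12 arrays. Between the breeds no gene of any of these lists passed. The 4 lowest p-values over these and the erythroid, endothelial and muscle lists belonged to *CSF3* (detected on 12 arrays, adjusted p = 0.14), the endothelial gene *VWF* (-0.37, SE 0.09, adjusted p = 0.19), *CCL5*, a T cell chemokine (1.53, SE 0.50, adjusted p = 0.33), and *MPO*, the neutrophil peroxidase (detected on 10 arrays, adjusted p = 0.33).

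**Figure D4:**
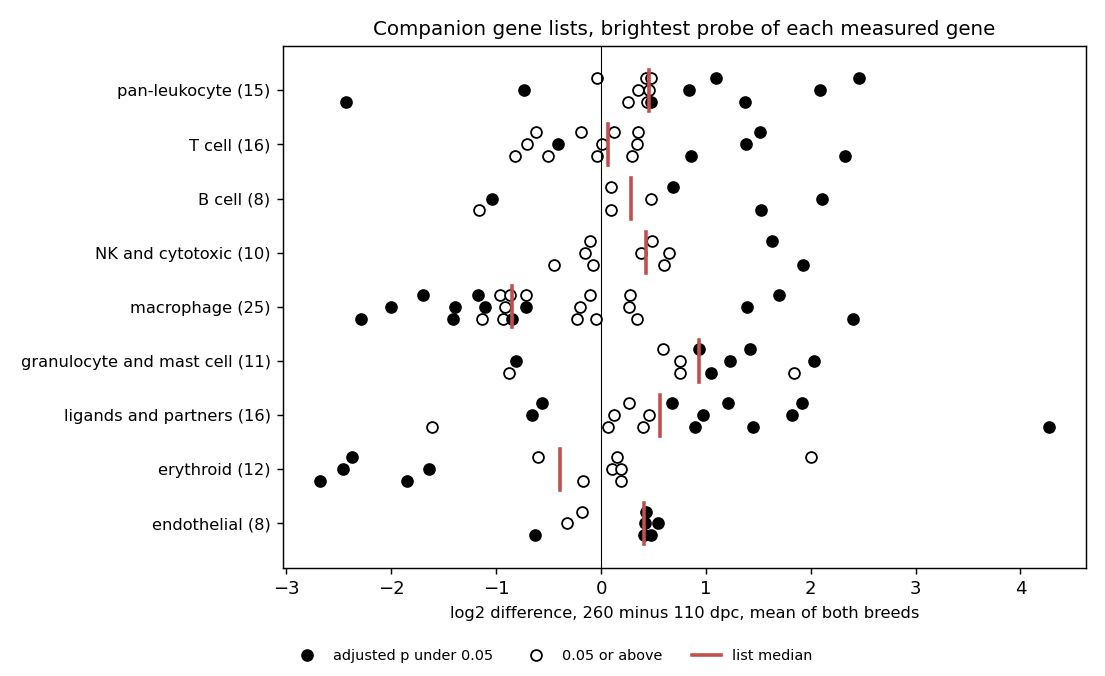
Fitted log2 differences of 260 minus 110 dpc (horizontal axis) for every measured gene of 9 companion lists by brightest probe, filled where the adjusted p is under 0.05, with a red bar at the list median and the number of genes in brackets. The macrophage list lies mostly below 0 (median -0.85) and the erythroid list holds 5 called genes, all lower.

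Other cell types of the tissue changed over the same interval. Of 12 erythroid genes 0 were higher and 5 lower, among them the globins *HBB* (-2.46, adjusted p = 5.0e-05), *HBA* (-1.64, adjusted p = 3.5e-05) and *HBG* (-2.68, adjusted p = 1.8e-05). The summed linear level of that list was 831 to 1438 in the foetuses of 110 dpc and 199 to 473 in those of 260 dpc, so these did not overlap. Of 8 endothelial genes 5 were higher and 1 lower, with differences of -0.63 to 0.54, and of 7 muscle genes 4 were higher and 2 lower, with *CKM*, the muscle creatine kinase, up by 3.11. The part of these changes in the falls of *CSF1R* and *CD163* was not tested.

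The mean level of the macrophage list was 2.42 in the third BA foetus at 110 dpc against 1.08 and 0.47 in the other BA foetuses of that stage. It was 0.96 to 1.05 in CH at 110 dpc, 1.43 to 1.70 in CH at 180 dpc and 0.30 to 0.74 in CH at 260 dpc. The CH foetuses of 180 dpc thus stood above those of 110 and 260 dpc on this mean, and in BA the foetuses of 180 dpc (2.20 and 1.57) stood above those of 260 dpc (0.83 and 0.75). On the summed linear level, used above for the erythroid list, the macrophage list was not lower at 260 dpc in CH. It was 613 to 672 in CH at 110 dpc and 678 to 805 in CH at 260 dpc. In BA it was 690 to 1101 at 110 dpc and 735 to 751 at 260 dpc. On the mean level of the T cell list the third BA foetus at 110 dpc read -1.59 against -2.12 and -2.41. The first BA foetus at 180 dpc read -1.31, the highest of all 21.

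**Figure D5:**
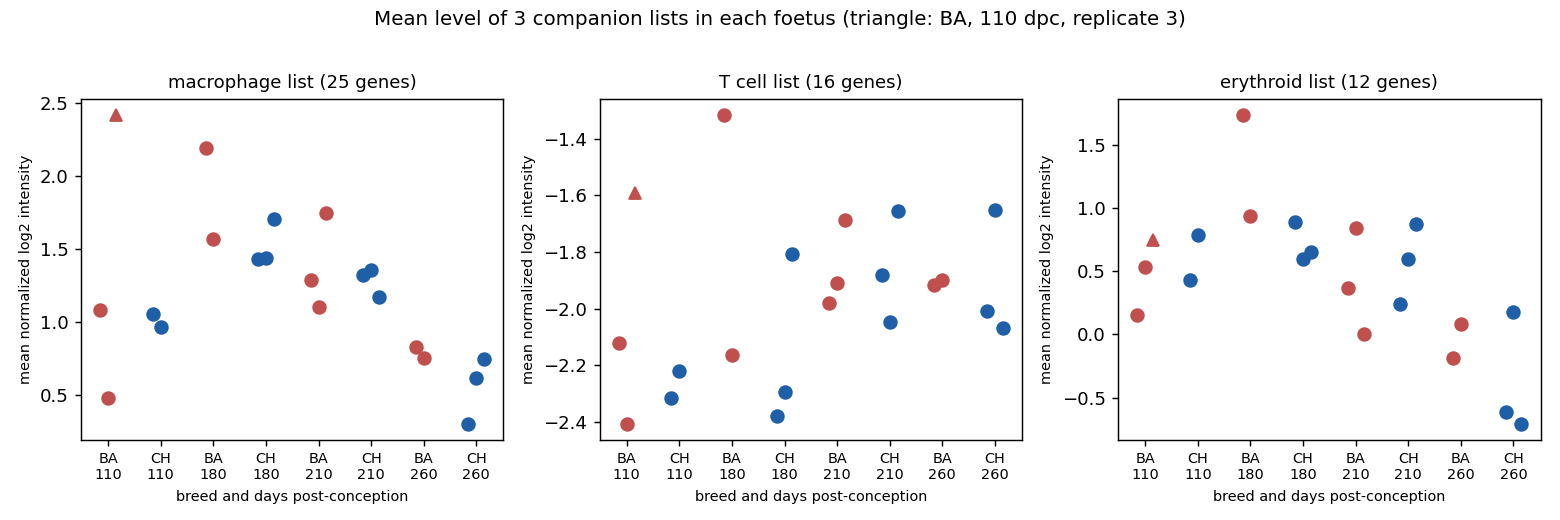
Mean normalized log2 intensity (vertical axes) of the macrophage, T cell and erythroid lists in each foetus, by breed and days post-conception, red for BA and blue for CH, with a triangle for the third BA foetus at 110 dpc. The triangle is the highest point of the macrophage panel at 2.42, and the 260 dpc points are low in the macrophage and erythroid panels.

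The genes whose levels over the 21 arrays were most like those of a marker were sought among 18107 probes of other named genes that were well above background on every array. For *CSF1R* they were *RNASE6* (0.97), *ADORA3* (0.96) and *TYROBP* (0.95), the last an adaptor of myeloid receptors. For the brightest *PTPRC* probe they were *TYK2* (0.98), *CETN2* (0.92) and *S1PR2* (0.89), and for *CD68* they were *CCL4* (0.94), *CREG1* (0.93) and *ACP4* (0.93). For *CD4* they were *MRPS28* (0.95), *FGR* (0.95) and *NOVA1* (0.94), for *LYZ* *ACP3* (0.94), *IL1RL1* (0.91) and *SSLP1* (0.81), for *CD14* *EPN3* (0.96), *MS4A13* (0.92) and *HPX* (0.92), and for *CD3D* *NXPE4* (0.86), *ZSCAN31* (0.86) and *TREM1* (0.80). These Pearson correlations are the highest of a large search over arrays that share stage, slide and scaling, and are given as a description.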

How the data were processed

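Muscle RNA of 21 foetuses was hybridised to single-colour bovine arrays, 1 per foetus. Per the methods, the authors extracted the intensity values with Feature Extraction 10.7, detrending them without subtracting background. These deposited intensity values were not scaled between arrays. A value table on the log2 scale was also deposited by the authors, and 99.98% of its 649670 entries differed from log2 of the scanner intensity by at most 0.01, so its scale, centring and direction are those of the scanner values.

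Control spots and 258 outlier spots were removed, and the spots of each probe averaged. Log2 intensities were reduced by each array's 75th percentile (525 to 1174 intensity units) and a constant of 2.69 was added to all. Probes were named through RefSeq accessions of the ARS-UCD2.0 annotation (26628 probes). Positions are not given, since the probes were designed on an older build, and sequences were not used here. Each gene is read by its brightest probe (highest mean over the arrays), beside its other probes. Companion genes are named by rule, as the up to 3 of each list with the lowest p for 260 minus 110 dpc and the 2 for BA minus CH, plus direct ligands and partners. A gene that this rule names is not reported here.

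Breed by stage groups (8) entered 1 limma 3.58.1 fit (R 4.3.3, residual degrees of freedom 13, prior 2.12), with Benjamini-Hochberg adjustment over all probes and no filter. For a probe not well above background in a whole group, bounds used, on each array, the higher of its own value and the lowest value well above background. Such a bound holds for the foetuses measured and has no p-value of its own. The fit was tested on simulated data. Alternatives covered the normalization (quantile, median scaling, normexp with offset 50, the authors' table), a filter on dim probes, sex as covariate or females only, a block for slide or for replicate number, every probe counted, and leaving out each array. Leaving out slide 6 was added after the data were seen. The markers, lists and rules were chosen with earlier results of these data known. Replicates are separate foetuses.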

Additional observations from a re-analysis of the deposited data

How the results depend on the processing

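Between 110 and 260 dpc the count of marker genes that passed was 5, and it was 9 probes with every marker probe counted, 1 gene in the authors' value table (*CSF1R*, with 8 genes fitted), 2 with slide as a block (*CD68*, *CSF1R*) and 4 to 6 over the fits that left out 1 array. From 110 to 180 dpc the count was 2, and it was 0 in the authors' table, 1 with the filter on dim probes (6 genes fitted), 1 without the 4 arrays of slide 6 and 1 to 3 with 1 array left out. From 180 to 210 dpc it was 0, and 0 to 1 with 1 array left out. From 210 to 260 dpc it was 4, and it was 1 in the authors' table, 1 in female foetuses alone (*CD163*), 1 with slide as a block (*PTPRC*) and 1 to 5 with 1 array left out. Between the breeds it was 0 everywhere, apart from 1 probe in the average and 1 at 180 dpc with every probe counted. The number of all probes called moved with the setting too. For 180 minus 110 dpc it was 5744, and 1789 to 6306 over the alternatives. For 260 minus 210 dpc it was 10455, and 8600 to 11901 over the alternatives. The cause of these changes was not tested, beyond the smaller number of genes fitted where it is given.

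Several small differences changed sign without passing. For 260 minus 110 dpc these were *CD3D* (-0.11 quantile, -0.0030 normexp, -0.31 authors' table, -0.12 females, and -0.044 to 0.20 with 1 array left out, below 0 without CH foetus 1 at 110 or 260 dpc), *CD14* (0.036 quantile, 0.039 median scaling, 0.11 normexp, 0.073 without slide 6, and -0.15 to 0.073 with 1 array left out, above 0 without BA foetus 3 at 110 dpc or BA foetus 1 at 260 dpc), *PTPRC* (-0.20 authors' table) and *LYZ* (-0.094 authors' table). For BA minus CH they were *CD3D* (-0.012 median scaling, -0.011 sex as a covariate, and -0.034 to 0.089 with 1 array left out), *CSF1R* (-0.10 females, -0.0025 slide block), *CD68* (-0.015 slide block, -0.061 without slide 6) and *CD14* (-0.047 without slide 6).

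The groups share replicate numbers, but these do not pair the foetuses: 66 pairs of arrays with the same number had a median correlation of -0.01 after group centring, against 0.006 for 126 other pairs. With replicate number as a block the counts of marker genes stayed within 1.5 times those given, at 5 for 260 minus 110 dpc. The number of all probes called between 110 and 260 dpc was 19167, and 12751 to 23552 over the alternatives. It was 1581 for 210 minus 180 dpc and 219 to 1949 over the alternatives, and 32 for the average breed difference and 12 to 106. Signal over background limits *CD3E*, *CD8A* and *CD163*, whose brightest probes were not well above background on every array.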
